A study of Rattus norvegicus with 15 samples.

Results

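Among the 43472 circular RNAs (circRNAs) listed in whole blood of rats, 57 were high in some libraries and listed at 0 in others. They were chosen on measured values in 13 of the 15 libraries, leaving aside sham replicate 2 and 1 h replicate 1, which listed few circRNAs. A member was above 0 in 3 to 9 of the 13 libraries, above 0 in sham replicate 1 or 3, and had a median of at least 200 SRPBM over its values above 0. SRPBM counts back-spliced reads and scales them to 1e9 mapped reads in the library. Of 16 circRNAs left out by name, 4 met the rest of the rule (CBT15_circR_2054, CBT15_circR_5196, CBT15_circR_17098 and CBT15_circR_39077), so the values alone would have given 61. These names were left out with comparisons of the same libraries already known, so the members are no sample of all such circRNAs.

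The rats were Sprague-Dawley males (an outbred stock) of 6 to 8 weeks and 250.0 to 300.0 g, per the labels. After modelling of deep venous thrombosis (DVT), blood was taken at 1 h, 6 h, 12 h or 3 d (72 h), and sham animals stood for 0 h, so that 5 groups of 3 libraries were formed. Beyond that, the labels describe neither the operation nor a treatment. Whether each library is a rat of its own is not in the labels either, so p-values measure the spread between these libraries, which may be technical. Sample titles put sham, 1 h and 3 d in a set A&B and 6 h and 12 h in a set C, without saying what the sets are.

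A circRNA is a closed loop made when a splice donor joins an acceptor that lies upstream of it. Loops have no free ends, which protects them from exonucleases, and blood is known to hold many of them. A read across the back-splice junction is the evidence for a loop, so SRPBM counts junctions and does not depend on the length of the loop. Whole blood mixes red cells, platelets and several kinds of white cell, and in such bulk samples fewer cells of a type and less RNA per cell cannot be told apart. The table names each circRNA by a running number, with no gene, coordinate or sequence, so neither host genes nor blood cell markers could be given for the members.

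Values above 0 were whole multiples of a step fixed for each library. The smallest value was 2 steps, and each library held 50 to 2098 values of 3 steps, so no larger step divides them all. A step was read as 1 back-spliced read. The table does not say so, and read numbers, mapped reads and Poisson intervals given here rest on that reading. Libraries had 66.0 to 92.4 M mapped reads (M for 1e6). The 13 libraries of the rule listed 9354 to 15366 circRNAs, against 2958 in sham replicate 2 and 2551 in 1 h replicate 1. No value stood for fewer than 2 reads, so a 0 is given as listed at 0 and not as absence.

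**Figure D1:**
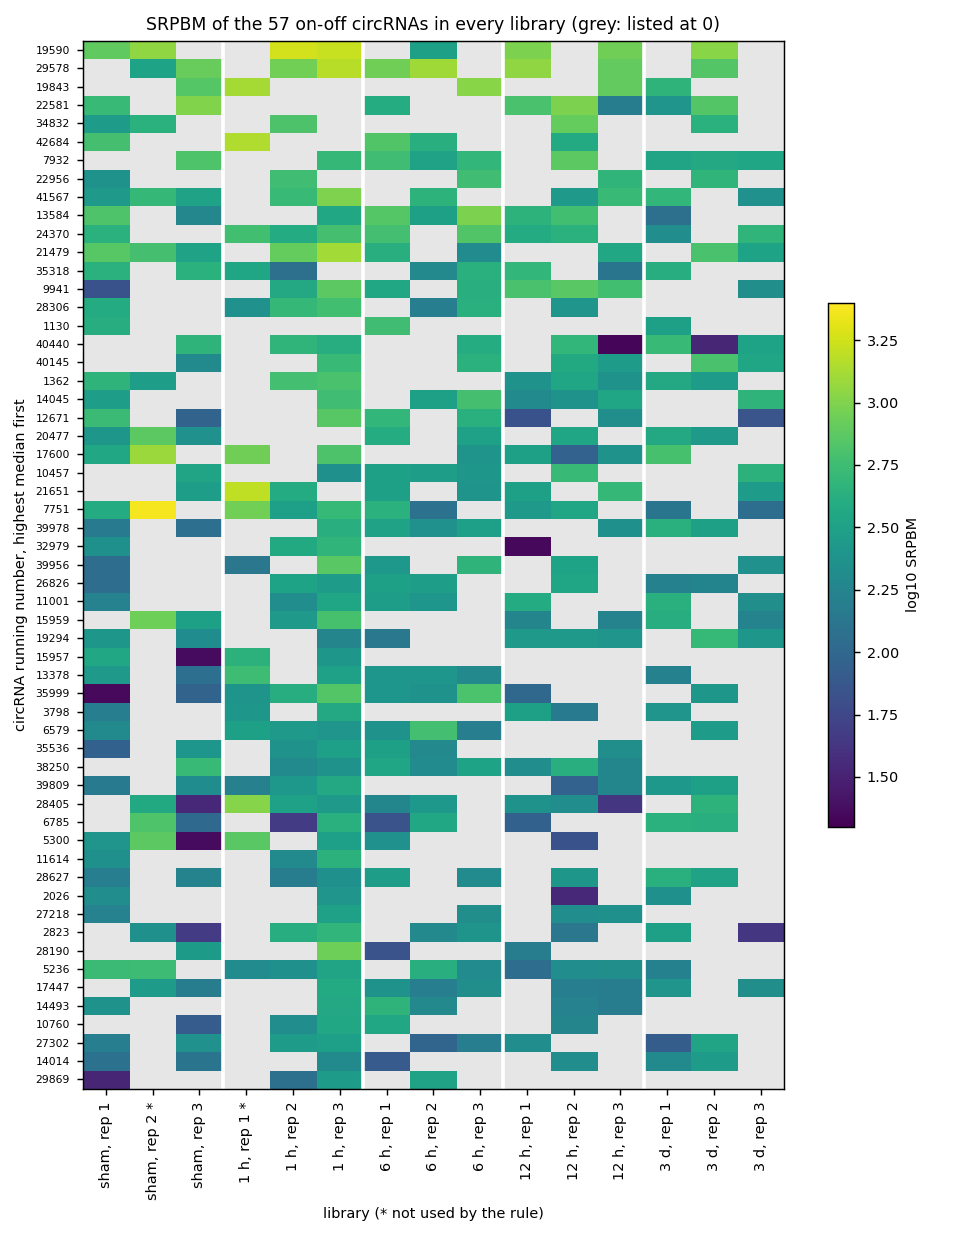
SRPBM of the 57 members (rows, highest median first, by running number) in the 15 libraries (columns), as log10 colour; grey cells are listed at 0. Listed and grey cells alternate within groups, and each of the 57 rows has a listing pattern of its own over the 13 libraries of the rule.

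The circRNA with the highest median, CBT15_circR_19590, had 778, 1120.5 and 0 SRPBM in the sham libraries (replicates 1, 2 and 3, the order used throughout). It stood at 0, 1803 and 1689 at 1 h, at 0, 314 and 0 at 6 h, at 962, 0 and 887 at 12 h, and at 0, 1059 and 0 at 3 d. Each group thus held at least 1 library at 0, and in each group another library was far above it. CBT15_circR_29578 was listed at 0, 333 and 824 SRPBM in sham, 0, 902 and 1486 at 1 h, 885, 1255 and 0 at 6 h, 1129, 0 and 779 at 12 h, and 0, 691 and 0 at 3 d. Its lowest listed value in the 13 libraries, 691 SRPBM, stood for 62 reads, while 5 of those libraries showed none. CBT15_circR_19843 had 0, 0 and 696 SRPBM in sham, 1309, 0 and 0 at 1 h, 0, 0 and 1072 at 6 h, 0, 0 and 790.1 at 12 h, and 466, 0 and 0 at 3 d. It was thus carried by a single library in each group.

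CBT15_circR_22956 showed the same 1-library pattern at 237, 0 and 0 SRPBM in sham, 0, 569 and 0 at 1 h, 0, 0 and 573 at 6 h, 0, 0 and 476 at 12 h, and 0, 468 and 0 at 3 d. The 4 listed values after modelling lay close together, between 468 and 573 SRPBM, although each came from another group. CBT15_circR_34832 stood at 282, 439 and 0 SRPBM in sham, at 0, 653 and 0 at 1 h, at 0, 804 and 0 at 12 h and at 0, 435 and 0 at 3 d, with no listed library at 6 h. CBT15_circR_42684 had 609, 0 and 0 SRPBM in sham, 1405, 0 and 0 at 1 h, 678, 410.4 and 0 at 6 h, and 0, 385 and 0 at 12 h, with no listed library at 3 d. Of these 3, none had a group with all of its libraries listed.

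Other members among the 10 highest were listed in more libraries. CBT15_circR_22581 stood at 519, 0 and 1009 SRPBM in sham, 402, 0 and 0 at 6 h, 626, 963 and 152 at 12 h, and 251, 691 and 0 at 3 d, with no listed library at 1 h. CBT15_circR_7932 had 0, 0 and 661 SRPBM in sham, 0, 0 and 495 at 1 h, 574, 326 and 487 at 6 h, 0, 748 and 0 at 12 h, and 334, 368 and 346 at 3 d. It was listed in all libraries at 6 h and 3 d, and in a single library of each other group. CBT15_circR_41567 had 271, 499.7 and 325 SRPBM in sham, 0, 534 and 979.6 at 1 h, 0, 459 and 0 at 6 h, 0, 272 and 530.3 at 12 h, and 489.6, 0 and 231 at 3 d. All of its sham libraries were listed, and each group after modelling had at least 1 library at 0. CBT15_circR_13584, the last of the 10, is given with the comparisons.

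Over the 57, the median of values above 0 ran from 200.1 SRPBM (CBT15_circR_29869) to 962 SRPBM (CBT15_circR_19590), and the 398 listed values in the 13 libraries had a median of 26 reads. Of those values, 83.4% lay within 2 times the member's own median, against 85.9% for circRNAs of like level listed in 10 to 13 libraries and 81.6% for on-off circRNAs below 200 SRPBM. In this share the members lay between both classes. Values under 25% of the circRNA's own median were 4.02% for members, above both classes (1.61% at like level, 0.392% below 200 SRPBM). Of the members' values, 10 (2.51%) stood for 2 or 3 reads, against 0.424% at like level and 30.4% below 200 SRPBM. The highest listed value of a member was a median of 3.72 times its lowest, at most 4 times in 31 members and more than 10 times in 10. In 37 members even the lowest listed value stood for 10 reads or more. CBT15_circR_20477 was the tightest: its 7 listed values in the 13 libraries lay between 232 and 402 SRPBM, and its other 6 values were 0. CBT15_circR_35999 was the widest, from 22.6 SRPBM (2 reads, exact 95% Poisson interval 0.242 to 7.22, counting error only) to 687 SRPBM. These figures describe values that the rule used, and they were not tested.

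**Figure D2:**
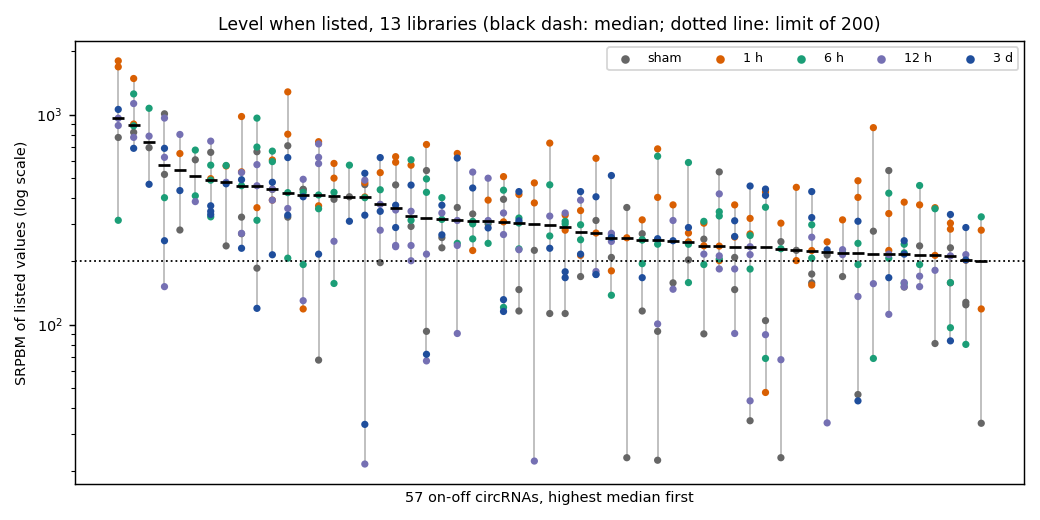
Listed values of each member in the 13 libraries (points, coloured by group, SRPBM on a log scale), with the member's range (grey line), its median (black dash) and the limit of 200 SRPBM (dotted). Most points lie close to their member's median, and 29 of the 398 lie under 100 SRPBM.

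Few circRNAs of this level were on and off. Of 2225 circRNAs with a median of 200 SRPBM or more and a value in sham replicate 1 or 3, listed in at least 3 of the 13 libraries, 1972 were listed in all 13 and 61 (2.74%) in 3 to 9. The share was 3.92% (43 of 1096, 95% Wilson interval 2.93 to 5.24) between 200 and 400 SRPBM, 2.64% (15 of 568, 1.61 to 4.31) between 400 and 800, and 0.643% (2 of 311, 0.177 to 2.31) between 800 and 1600. Below the limit the same listing was common, at 20.0% (429 of 2144, 18.4 to 21.8) between 100 and 200 SRPBM and 68.0% (3261 of 4793, 66.7 to 69.3) between 50 and 100. The intervals cover counting error only. At the limit itself, CBT15_circR_29869 and CBT15_circR_14014 lay just inside with medians of 200.1 and 203 SRPBM. CBT15_circR_37941 and CBT15_circR_1571 lay just outside with 198 and 197 SRPBM, so the limit separates circRNAs of nearly the same level.

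Members were counted in each library to describe how their listing ran over the time course. In the 13 libraries, 42 and 33 of the 57 were above 0 in sham replicates 1 and 3, 32 and 48 in 1 h replicates 2 and 3, and 33, 27 and 29 at 6 h. At 12 h the counts were 25, 34 and 27, and at 3 d 28, 22 and 18. The means were 37.5 ± 6.36 (SD, n = 2) in sham, 40.0 ± 11.3 (n = 2) at 1 h, 29.7 ± 3.06 (n = 3) at 6 h, 28.7 ± 4.73 (n = 3) at 12 h and 22.7 ± 5.03 (n = 3) at 3 d. The sham counts are set by the rule, which asks for a sham value. Both 1 h libraries exceeded all 3 libraries at 3 d, and their range overlapped those at 6 h and 12 h.

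The summed signal of the members was 18554 ± 7917 SRPBM at 1 h (SD, n = 2), 10609.8 ± 1880.0 at 6 h, 9437 ± 1690.4 at 12 h and 7624 ± 2449.7 at 3 d (n = 3 each). It came to at most 0.166% of the circRNA signal in any of the 13 libraries. The 6425 on-off circRNAs below 200 SRPBM moved with the members in part. In 1 h replicate 3, 84.2% of members and 56.2% of those were listed, and in 3 d replicate 2, 38.6% and 26.9%. 3 d replicate 3, with fewest members of the 13 (31.6%), held 34.6% of the lower circRNAs. The 2164 circRNAs of 200 SRPBM or more listed in 10 to 13 libraries, called steady here, were listed at 97.7% to 99.7% in each of the 13, a share their definition keeps high. What part the number of circRNAs in a library has in the members' counts was not tested.

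**Figure D3:**
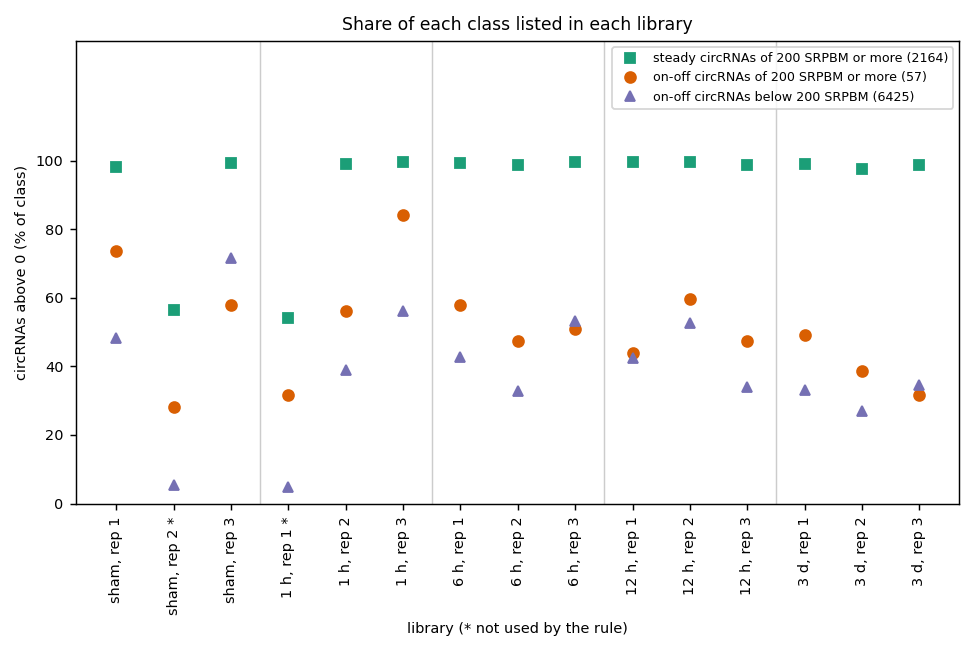
Share of each class above 0 in each library (y axis, percent of the class; x axis, the 15 libraries by group). The members reach 84.2% in 1 h replicate 3 and 31.6% in 3 d replicate 3, while steady circRNAs stay at 97.7% or more outside the 2 starred libraries.

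Listing was about as alike between groups as within them. For each pair of the 11 libraries after modelling that the rule used, the share of the 57 members with the same state (both listed or both at 0) was taken. It averaged 52.6% over 10 pairs of the same group (42.1% to 61.4%) and 51.0% over 45 pairs from different groups (40.4% to 63.2%). Within a library set, pairs from different groups averaged 48.9% (15 pairs), and across sets 52.1% (30 pairs). The lower on-off circRNAs gave 55.2% within and 53.3% between groups. The ranges overlap nearly whole, and no test was made, since the members were chosen on listing.

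At 6 h, 9 members were listed in all 3 libraries, 9 in none and 39 in some. At 12 h these numbers were 9, 6 and 42, and at 3 d 2, 13 and 42. Listing in 3 to 9 of 13 libraries, which the rule asks for, makes mixed groups common. Among the lower on-off circRNAs 68.5%, 69.9% and 62.9% were mixed, against 68.4%, 73.7% and 73.7% of members. Over all circRNAs tested the shares were 52.1%, 52.5% and 50.0%. Steady circRNAs, whose definition keeps mixing low, gave 2.13%, 1.99% and 4.34%. Over the 1596 pairs of members, the number of the 13 libraries in which both had the same state had a median of 7 and ran from 2 to 12. No pair was opposite in every library.

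Sham replicate 2 and 1 h replicate 1 were not used to choose the members and give a separate reading of them. In sham replicate 2, 16 of 57 members were above 0 (28.1%, 95% Wilson interval 18.1 to 40.8), and in 1 h replicate 1 18 of 57 (31.6%, 21.0 to 44.5). Steady circRNAs within the members' range of medians were listed at 47.2% (806 of 1707, 44.9 to 49.6) and 45.1% (770 of 1707, 42.8 to 47.5), above the members' shares in both, with intervals apart in sham replicate 2 and overlapping in 1 h replicate 1. On-off circRNAs below 200 SRPBM were listed at 5.45% (350 of 6425, 4.92 to 6.03) and 4.73% (304 of 6425, 4.24 to 5.28). Members thus lay between both classes in each library. The intervals cover counting error only and treat the circRNAs of a library as independent. The median level was 339.9 SRPBM for these steady circRNAs and 296 SRPBM for members, and the part of level was not tested. In all, 5 members were listed in both libraries and 28 in neither.

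When listed in these libraries, members were often above their usual level. As a description, the median ratio of the value to the member's own median was 1.52 in sham replicate 2 (13 of 16 above 1, 7 above 2) and 1.53 in 1 h replicate 1 (12 of 18 above 1, 7 above 2). For steady circRNAs in the same range of medians the ratios were 0.880 and 0.504. On-off circRNAs below 200 SRPBM were also above their usual level, with ratios of 2.98 (327 of 350 above 1) and 1.63 (228 of 304), so this is not particular to the members. CBT15_circR_7751 had 2362 SRPBM in sham replicate 2 and 900.3 in 1 h replicate 1, against 115 to 507 SRPBM where listed in the 13. CBT15_circR_17600 had 1211 and 873 SRPBM, against 90.6 to 653. CBT15_circR_21651 was listed at 0 in sham replicate 2 and at 1582 SRPBM in 1 h replicate 1, against 244 to 498. These 3 members thus exceeded all of their other values in 1 or both of the libraries. CBT15_circR_42684 (1405 SRPBM) and CBT15_circR_19843 (1309 SRPBM) also had their highest value of all 15 libraries in 1 h replicate 1. These libraries had 66.0 and 73.3 M mapped reads and few circRNAs. At 69.3 M, 3 d replicate 3 listed 10638 circRNAs, and its members stood at a median of 0.715 times their level in the other libraries of the rule. The part of mapped reads and of circRNA number in the ratios was not tested.

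**Figure D4:**
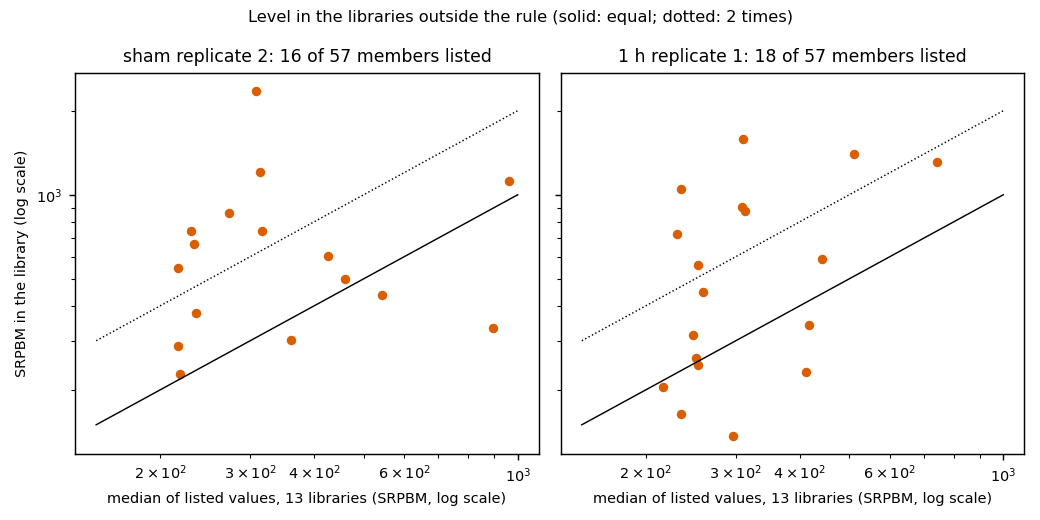
Value of each listed member in the libraries the rule did not use (y axis) against its median over the 13 libraries (x axis), both in SRPBM on log scales, with lines at equality (solid) and at 2 times (dotted). In sham replicate 2, 13 of 16 points lie above equality, and in 1 h replicate 1, 12 of 18.

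How the members stood late against early was read from 3 d and 1 h, which share set A&B. The fitted log2 change of the members was below 0 in 43 and above 0 in 14, with a median of -1.08, against 0.02 over all 16767 circRNAs tested. At an unadjusted limma p under 0.05 there were 13 lower and 2 higher members (26.3% of 57), where 1.88% of all circRNAs tested were lower and 2.75% higher. None passed the Benjamini-Hochberg adjusted p of 0.05 in limma, so no member is called lower, and no other circRNA tested passed it (percent called 0, with 776 or 4.63% at an unadjusted p under 0.05). With the spread tied to abundance, limma called 6 circRNAs, of which 0 were members. Scaling moved the median of all circRNAs from 0.02 to -0.18 (to total circRNA signal) or 0.15 (median-ratio). Members at an unadjusted p under 0.05 were then 17 lower and 0 higher, or 9 lower and 3 higher. Over all circRNAs, 6.82% were lower and 0.751% higher after the first scaling, and 1.73% and 5.36% after the second, so under the first the lean to lower was shared. In the rule's libraries 7 members (12.3%) were listed at both 1 h replicates and in none at 3 d, and 0 the other way round. Over all circRNAs tested these shares were 4.81% and 0.674%, and over the lower on-off circRNAs 6.88% and 0.825%, so these 2 sets leaned as the members did. Steady circRNAs did not, with 0 and 2 of 2164 (0.0924%). The patterns are not mirror images: the first asks for 2 listed libraries and 3 at 0, the second for 3 listed and 2 at 0. What part this has in the lean was not tested.

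CBT15_circR_28306 had 232, 498 and 586 SRPBM at 1 h with no listed library at 3 d (limma adjusted p = 0.942, and 0.0726 to 0.973 over 16 alternatives). Its unadjusted p was the smallest of the members here. In the other groups it stood at 395, 0 and 0 in sham, 0, 157 and 426 at 6 h, and 0, 249 and 0 at 12 h. CBT15_circR_35999 had 246, 403 and 687 SRPBM at 1 h and 0, 256 and 0 at 3 d (log2 change -3.03, SE 0.93, limma adjusted p = 0.942), so that the groups overlap. In the opposite direction, CBT15_circR_20477 had no listed library at 1 h and 370.2, 268 and 0 SRPBM at 3 d (limma adjusted p = 0.942). CBT15_circR_22581, given above with 251, 691 and 0 SRPBM at 3 d and none at 1 h, had the same adjusted p of 0.942. In both, the 3 d library at 0 ties with the 1 h libraries.

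Single libraries weighed on these counts, 1 h replicate 3 most. Without it, 8 of 56 members were at an unadjusted limma p under 0.05, 3 higher and 5 lower, and their median log2 change was -0.28, with 27 above 0 and 29 below. Of all circRNAs, 5.55% were then higher and 0.815% lower, with a median log2 change of 0.42. Without 1 h replicate 2 or 3 d replicate 2 the count of members was 9, all lower. Of all circRNAs, 1.47% were lower and 3.6% higher without the first, and 1.1% and 2.97% without the second. 1 h replicate 3 listed 48 members at a median of 1.72 times their level in the other libraries, against 1.30 for steady circRNAs of like level. Without sham replicate 2 and 1 h replicate 1, 14 members were lower and 1 higher, with medians of -1.72 for members and -0.27 over all circRNAs. Of all circRNAs, 8.0% were then lower and 1.2% higher. Without 1 h replicate 1 alone, 14 members were lower and 0 higher, where 6.94% of all circRNAs were lower and 0.994% higher. The members' own residual SD had a median of 1.92 on the log2 scale, against 0.95 over all circRNAs, and the SD that limma used for them, drawn towards the rest, had a median of 1.50. The rule also used the listing in 5 of the 6 libraries compared, all but 1 h replicate 1. What part the smaller SD and the rule have in the members' unadjusted p-values was not tested. Their share above that of all circRNAs is therefore given as a description only. Of the 4 left out by name that met the rest of the rule, 1 was lower and 0 higher at an unadjusted limma p under 0.05.

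Between 12 h and 6 h, both in set C, the members did not lean one way. Of the 57, 3 were higher and 4 lower at 12 h at an unadjusted limma p under 0.05 (12.3%), against 1.40% and 1.72% of all 16767 circRNAs. The median log2 change was -0.14, against -0.02 over all. The rule used the listing in all libraries of both groups, and limma used the same smaller SD for the members as above. What part these have was not tested, so the members' share is a description only. Limma called 0 circRNAs at an adjusted p of 0.05 (percent called 0, with 523 or 3.12% at an unadjusted p under 0.05), and 2 with the spread tied to abundance, of which 0 were members.

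CBT15_circR_6579 had 241, 591 and 158 SRPBM at 6 h with no listed library at 12 h (limma adjusted p = 1). It was also above 0 in every 1 h library (314, 273 and 248) and in single libraries of sham (203) and 3 d (289.8). CBT15_circR_35999 had 253, 241 and 634 SRPBM at 6 h and 100.6, 0 and 0 at 12 h, so that these groups did not overlap (log2 change -3.16, SE 0.93, limma adjusted p = 1). CBT15_circR_1362 was opposite, with 235, 351 and 238 SRPBM at 12 h and no listed library at 6 h (limma adjusted p = 1). It had 463, 303 and 0 SRPBM in sham, 0, 593 and 631 at 1 h, and 370.2, 289.8 and 0 at 3 d, so 6 h was its only group with no listed library. CBT15_circR_19294 stood at 138, 0 and 0 SRPBM at 6 h and at 268, 272 and 249 at 12 h, with a log2 change of 2.69 (SE 1.15, limma adjusted p = 1).

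**Figure D5:**
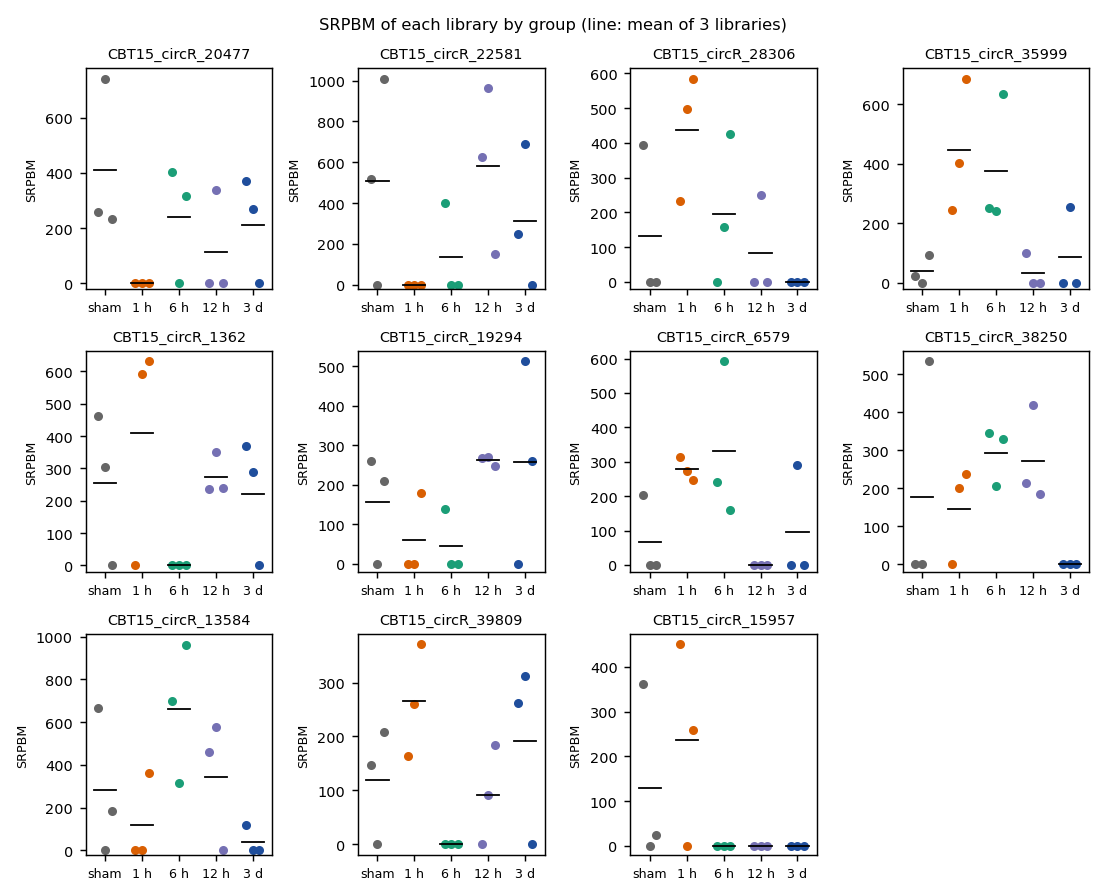
SRPBM (y axis) of the 3 libraries of each group (points, replicates 1 to 3 from left to right; line, mean of 3) for the members named in the comparisons. CBT15_circR_28306 is at 0 throughout 3 d, CBT15_circR_6579 throughout 12 h and CBT15_circR_1362 throughout 6 h, while most other groups mix listed and zero libraries.

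The last comparison set 6 h and 12 h against 1 h and 3 d, so that 6 libraries stood against 6. Sham was left out of it because the rule asks for a sham value, and time cannot be told apart from library set. The rule also used the listing in all libraries compared but 1 h replicate 1. The members' shares here and in the alternatives are therefore a description only. Of the members, 2 were higher and 1 lower at an unadjusted limma p under 0.05 (5.26%), against 6.12% and 0.835% of all 16767 circRNAs tested, a total of 6.95%. Their median log2 change was -0.29 against 0.27 over all. Limma called 1 circRNA (percent called 0.00596), CBT15_circR_6449, which is no member: it was listed at 249 to 566 SRPBM in the 6 libraries of set C and at 0 to 47.8 in the others (adjusted p = 0.000843).

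CBT15_circR_38250 came nearest among the members. It had 345, 205 and 329 SRPBM at 6 h and 212, 419 and 184 at 12 h, against 0, 202 and 236 at 1 h and 0 in all 3 libraries at 3 d (log2 change 2.53, SE 0.72, limma adjusted p = 0.412). The 1 h values lay within the range of set C in 2 of 3 libraries, and sham stood at 0, 0 and 534. CBT15_circR_13584 had 701, 314 and 963 SRPBM at 6 h and 458, 578 and 0 at 12 h, against 0, 0 and 360.3 at 1 h and 119, 0 and 0 at 3 d (log2 change 2.77, SE 0.92, limma adjusted p = 0.556). Its sham values were 666, 0 and 186. CBT15_circR_39809 was listed at 0 in all 6 h libraries and at 0, 90.6 and 184 SRPBM at 12 h, against 164, 261 and 372 at 1 h and 263, 312 and 0 at 3 d (log2 change -2.12, SE 0.71, limma adjusted p = 0.556). CBT15_circR_15957 had 450.1, 0 and 259 SRPBM at 1 h and no listed library at 6 h, 12 h or 3 d (limma adjusted p = 0.736).

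Libraries decided some of these counts. Without 1 h replicate 1, 10 members were at an unadjusted limma p under 0.05 in this comparison, 3 higher and 7 lower, which is 17.5% against 6.43% of all circRNAs. Without 1 h replicate 3 the count was 8, with 7 higher and 1 lower, or 14.3% against 9.63%. With the spread tied to abundance it was 11, with 6 higher and 5 lower, or 19.3% against 6.88%. The members' share, below that of all circRNAs at first, was above it in these 3 cases, and the balance of directions turned between them. The count was 6 without 3 d replicate 3 (10.5% against 6.43%). It was 5 without 1 h replicate 2 (8.93% against 6.92%), 6 h replicate 3 (8.77% against 5.36%) or 3 d replicate 2 (8.77% against 5.83%). The members' share was thus above that of all circRNAs there too. The same held without 6 h replicate 1 (7.14% against 6.91%) or 6 h replicate 2 (7.02% against 6.64%). So it did without 12 h replicate 1 (7.02% against 6.12%) or 12 h replicate 2 (7.02% against 5.24%). Among fits without a single library, the members' share stayed below only without 12 h replicate 3 (5.26% against 7.62%) or 3 d replicate 1 (5.36% against 6.17%). Of the 4 left out by name, 2 were higher and 0 lower.

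Across the 4 groups after modelling, 7 members (12.3%) were listed in all 3 libraries of a group and in none of another. The share was 6.72% of all circRNAs tested and 10.6% of the lower on-off circRNAs, close to that of the members. These included CBT15_circR_6579 (1 h and 6 h over 12 h), CBT15_circR_38250 (6 h and 12 h over 3 d), CBT15_circR_22581 (12 h over 1 h) and CBT15_circR_28306 (1 h over 3 d). The other 3 were CBT15_circR_1362 (12 h over 6 h), CBT15_circR_13378 (6 h over 12 h) and CBT15_circR_39809 (1 h over 6 h).

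Running numbers were used to look beside each member, though the table does not say what orders them. In 49.3% of the 343 zero values of members, a circRNA within 5 running numbers stood at 200 SRPBM or more, and in 51.3% of the 398 listed values. The highest such neighbour had a median of 189.8 SRPBM where the member was at 0 and 206 SRPBM where it was listed. Neighbours thus stood at about the same level in both states. The lower on-off circRNAs gave 41.1% and 43.2%.

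In 17 members, a neighbour was at 200 SRPBM or more in every library of the 13 where the member was at 0. The same count was not made for other circRNAs, so it cannot be called particular to the members. Beside CBT15_circR_19590, CBT15_circR_19591 stood at 414 to 816 SRPBM in all 13 libraries, CBT15_circR_19594 at 336 to 1004 and CBT15_circR_19585 at 229.8 to 732. Beside CBT15_circR_29578, CBT15_circR_29574 stood at 1234 to 2924 SRPBM and CBT15_circR_29573 at 496 to 2169. CBT15_circR_22579, beside CBT15_circR_22581, ran from 281 to 1542 SRPBM, and CBT15_circR_22954, beside CBT15_circR_22956, from 395 to 758. These 7 neighbours were picked for standing at 200 SRPBM or more where the member was at 0, so their listing there was set by the pick. They were also listed in the rest of the 13 libraries.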

How the data were processed

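Blood RNA was prepared by the PAXgene method and sequenced paired-end from NEBNext Ultra libraries, per the labels' protocols. The authors deposited 1 table of signal, SRPBM per circRNA and library, made with find_circ per the file's name. Bowtie 0.12.2 and the rat build Rnor_6.0 stand in the submitters' processing notes without a role; for the limits on calling a circRNA, no value is given in the sources used here. Values above 0 were whole multiples (100%, within 0.01 read) of a step taken as the smallest value of a library over 2, and 0 pairs of libraries were identical.

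Groups followed the labels. Members and lists were chosen with earlier results of these data known. Limma 3.58.1 in R 4.3.3 was run on log2(SRPBM + 23.2), the pseudocount being the median over libraries of the smallest value above 0. Changes of low circRNAs are understated, those with zeros depend on the pseudocount, and no fold is given against a group at 0. CircRNAs above 0 in at least 3 of 15 libraries entered (16767, with all 57 members), and the 5 groups shared a fit without a replicate block. The spread was not tied to abundance, since on-off circRNAs spread more than others of their mean. Earlier results of these data, in which tying it gave many calls read as false, were also a reason. The script was tested on simulated data. Sham was not compared, because the rule asks for a sham value. The rule also used the listing in all libraries that were compared, except 1 h replicate 1. Named members were the 10 with the highest median, the 2 with the smallest p per direction and comparison, the 3 highest in each library outside the rule, up to 4 that switched between groups, those beside the limit and up to 4 with a neighbour above 200 SRPBM at their zeros. Pairs with opposite listing were sought. CBT15_circR_13378 was named after its values were seen.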

Additional observations from a re-analysis of the deposited data

How the results depend on the processing

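No member passed an adjusted p of 0.05 in limma in any of the 3 comparisons or their alternatives, and the 12 named results kept their direction in all 223 alternatives that tested them. Over all circRNAs, calls for 3 d against 1 h went from 0 to 6 with the spread tied to abundance, 1 with only the groups compared and 1 without sham replicate 2 and 1 h replicate 1 (0 to 1 on leaving out single libraries). For 12 h against 6 h they went from 0 to 21 with no filter and 2 with the spread tied to abundance (0 throughout on leaving out single libraries). For set C against 1 h and 3 d they went from 1 to 0 with a pseudocount of 1 SRPBM, 2 with no filter and 3 with the spread tied to abundance. Members at an unadjusted p under 0.05 for 3 d against 1 h went from 15 to 6 with the pseudocount 10 times as large, 9 with one of 1 SRPBM, 8 with no filter, 8 of 35 with at least 8 libraries and 7 of 34 with only the groups compared (8 to 14 without single libraries). These were 10.5% to 22.9% of members, against 2.79% to 5.08% of all circRNAs tested (14.3% to 24.6% against 3.51% to 7.93%). The main fit gave 26.3% against 4.63%. For 12 h against 6 h the count of members went from 7 to 4 with a pseudocount of 1 SRPBM, 4 with no filter and 14 with the spread tied to abundance (5 to 9). These were 7.02%, 7.02% and 24.6% of members, against 3.66%, 3.61% and 3.8% of all circRNAs tested (8.77% to 15.8% against 2.86% to 3.61%). For set C against 1 h and 3 d the count of members went from 3 to 11 with the spread tied to abundance, 5 with the replicate block and 10 without sham replicate 2 and 1 h replicate 1 (3 to 10). These were 19.3%, 8.77% and 17.5% of members, against 6.88%, 6.94% and 7.33% of all circRNAs tested (5.26% to 17.5% against 5.24% to 9.63%). The cause was not tested. With the block the counts were 15 (3 d against 1 h, as without it) and 8 (12 h against 6 h, 7 without it). Replicate numbers share no stated source, and 5 of 15 libraries correlated best with their own number. The rule gave 133 members at 150 SRPBM, 28 at 300 and 37 with 4 to 8 libraries (44 to 83 without single libraries). Zeros with a neighbour at 200 SRPBM were 26.2% within 2 running numbers and 89.8% within 20. The 2 planned count models were not run, since the table holds no value of 1 read.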
